A study of Mus musculus with 8 samples.

Results

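The loss of LRH-1 before the ovulatory signal was read from the RNA of mouse granulosa cells in 2 of the 8 samples of the series, the conditional knockout (cKO) and the control (CTL) taken before human chorionic gonadotropin (hCG). They were chosen by their labels alone, and each holds 3 libraries, so 6 of the 12 RNA libraries are described. The cKO mice carried floxed Nr5a2 alleles and a Cre recombinase under the Amhr2 promoter (Nr5a2 f/f Amhr2 Cre/+), and the CTL mice carried the same floxed alleles without Cre (Nr5a2 f/f Amhr2 Cre/-). All were C57BL/6 females aged 22 to 25 days that had received 5 IU of equine chorionic gonadotropin (eCG) 44 h earlier, so the CTL cells had seen eCG as well. The labels call the genotypes LRH-1 -/- and LRH-1 +/+ and place the deletion in granulosa cells from the primary follicle onward. Granulosa cells were released by puncture of the ovary. The other 6 RNA libraries came from the same genotypes 4 h after 5 IU of hCG and are used for the spread of the fit and to follow single transcripts.

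LRH-1, the product of Nr5a2, is a nuclear receptor that binds DNA as a monomer and activates genes of steroid and cholesterol handling. In the ovary it is made by granulosa cells of growing follicles and by the corpus luteum, and mice that lack it in granulosa cells do not ovulate. Amhr2-Cre acts in cells that express the receptor for anti-Müllerian hormone, which in the follicle are the granulosa cells. The values were given per transcript under Ensembl identifiers, and these could not be matched to genes with the reference tables at hand. Nr5a2 itself, markers of granulosa and other ovarian cells, and lists of steroid, ovulation and cell cycle genes were therefore not analysed here, and no transcript is given a gene name.

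The 6 libraries held 12867403, 18022984 and 17125916 estimated counts in cKO and 15439164, 10336427 and 9250965 in CTL, over 110473 transcripts. Levels are given as CPM, the counts of each library scaled to a common total. Replicate 1 of both genotypes stood apart from the other 4 libraries. Across 1558 transcripts averaging 100 CPM or more, Pearson's r of log2(CPM + 1) was 0.61 between cKO replicate 1 and CTL replicate 1. Either of them reached between -0.11 and 0.07 with the other 4 libraries, which ranged from 0.42 to 0.58 among themselves. These correlations run across transcripts, which are not independent, and were taken over transcripts selected for their level in the same libraries. Both replicate 1 libraries lay above the other 4 in 351 of the 1558 transcripts (22.5%) and below them in 447 (28.7%). Over all 32944 tested transcripts these numbers were 3536 (10.7%) and 2776 (8.43%). The labels give no batch. The calls, the counts of transcripts that separate the genotypes and the spread are also given without this pair. Nothing in the labels says that the libraries came from separate animals, so the tests measure the spread between these libraries.

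**Figure D1:**
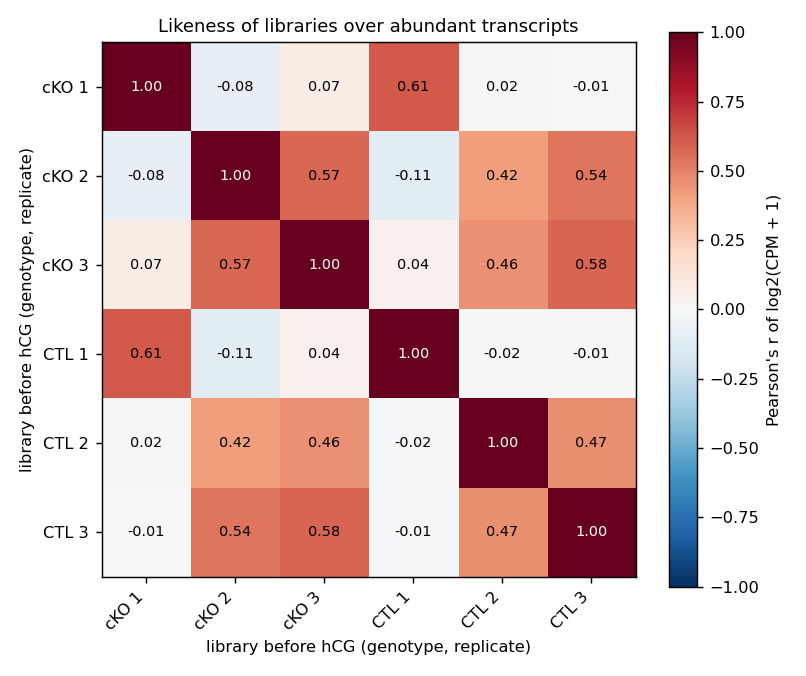
Pearson's r of log2(CPM + 1) between each pair of the 6 libraries before hCG, over 1558 transcripts that average 100 CPM or more; rows and columns are libraries and colour runs from -1 to 1. Replicate 1 of cKO and replicate 1 of CTL reached 0.61 with each other and at most 0.07 with the remaining libraries.

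The comparison of cKO with CTL asked which transcripts depended on LRH-1 before the ovulatory signal. In cKO cells 2 of 32944 tested transcripts rose and 0 fell (edgeR's quasi-likelihood test, Benjamini-Hochberg adjusted p under 0.05), a share called of 0.00607% of the tested transcripts in the upward direction and 0% in the downward one. At an unadjusted p under 0.05 the same test gave 1278 higher (3.88%) and 921 lower (2.80%) in cKO. With 1 library left out, the direction of this split followed the side that lost it. Leaving out cKO replicate 1, 2 or 3 gave 943 higher and 313 lower, 897 and 271, or 748 and 289. Leaving out CTL replicate 1, 2 or 3 gave 309 higher and 746 lower, 326 and 661, or 431 and 661. The sides were then unequal, so these fits cannot show whether the direction of the full split holds. Without both replicate 1 libraries, with equal sides, the numbers were 219 and 205. In bulk RNA, fewer cells of a type and less RNA per cell cannot be told apart.

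ENSMUST00000055820, a transcript of 638 bases, was abundant in every cKO library and scarce in CTL. Its level was 1139, 4378 and 960.3 CPM in cKO replicates 1 to 3, against 41.1, 0.508 and 0 CPM in CTL replicates 1 to 3. All cKO libraries lay above all CTL libraries, and the highest CTL value came from replicate 1. The fitted log2 fold change was 7.45 (SE 1.41, edgeR adjusted p = 0.00464). Its size rested on single libraries, since it was 5.98 without cKO replicate 2 and 13.21 without CTL replicate 1. Without both replicate 1 libraries it was 13.60 and the call remained (edgeR adjusted p = 2.42e-07). The call was lost without cKO replicate 2 (edgeR adjusted p = 0.228), CTL replicate 2 (edgeR adjusted p = 0.628) or CTL replicate 3 (edgeR adjusted p = 0.594).

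ENSMUST00000215588, a long transcript of 13938 bases, was the other call. Its level was 0, 1030 and 512.9 CPM in cKO replicates 1 to 3, against 0, 0 and 0 CPM in CTL. The genotypes met at 0, since cKO replicate 1 held no count of it, and 2 cKO libraries carried the whole difference. Pooled over each genotype, the level was at least 6649-fold higher in cKO, taking 3 counts over the CTL libraries as the floor for a count of 0 (edgeR adjusted p = 0.0239). Leaving out cKO replicate 1 kept the call (edgeR adjusted p = 0.0142), and leaving out any other single library before hCG lost it (edgeR adjusted p from 0.131 without cKO replicate 3 to 0.809 without CTL replicate 2). Without both replicate 1 libraries the edgeR adjusted p was 0.549.

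No transcript passed the threshold in the other direction, and the pair with the lowest p among those whose libraries did not overlap is given as values. ENSMUST00000211290 (3035 bases) stood at 0, 0 and 0.0301 CPM in cKO replicates 1 to 3, against 336.8, 328 and 134 CPM in CTL. Every CTL library held over 1000 estimated counts of it (5199, 3387 and 1236), and the cKO libraries together held 0.516. Pooled, it was at least 4488-fold lower in cKO against a floor of 3 counts (edgeR adjusted p = 0.354). ENSMUST00000194446 (7571 bases) stood at 0, 0 and 0 CPM in cKO, against 231, 289 and 5.67 CPM in CTL. It was at least 3013-fold lower in cKO by the same floor (edgeR adjusted p = 0.452). CTL replicate 3 lay far below the other CTL libraries for this transcript. Fits with the 6 libraries before hCG alone, blocked by replicate number, and DESeq2 called both of these transcripts lower in cKO. That is 2 of the 18 alternatives tried for each.

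The 4 transcripts were followed to 4 h after hCG. ENSMUST00000055820 stood at 13615, 0 and 1351 CPM in cKO after hCG, against 0, 1495 and 1509 CPM in CTL, so each genotype held libraries at 0 and libraries above 1000 CPM. ENSMUST00000215588 stood at 269.8, 1369 and 1.62 CPM in cKO after hCG, against 0, 0 and 5.06 CPM in CTL. It was again higher in most cKO libraries, but the genotypes overlapped. ENSMUST00000194446 stood at 178, 131 and 0.0009 CPM in cKO after hCG, against 217.5, 0 and 293 CPM in CTL, and overlapped as well.

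ENSMUST00000211290 was ordered the other way round after hCG. Its level there was 570.5, 219 and 126 CPM in cKO, against 0, 1.21 and 55.3 CPM in CTL. The libraries of the genotypes did not overlap at either time, with cKO below CTL before hCG and above it afterwards. The test of the difference between the times passed the threshold (edgeR interaction adjusted p = 0.0413). It did not pass for ENSMUST00000055820 (edgeR interaction adjusted p = 0.239), ENSMUST00000215588 (edgeR interaction adjusted p = 0.287) or ENSMUST00000194446 (edgeR interaction adjusted p = 0.224). The interaction call of ENSMUST00000211290 was lost when any single library before hCG was left out (edgeR adjusted p from 0.0915 without CTL replicate 3 to 0.417 without cKO replicate 1). Across all features, 11 of 32944 transcripts (0.0334%) passed this test, and none of the 11 was among the calls before hCG.

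**Figure D2:**
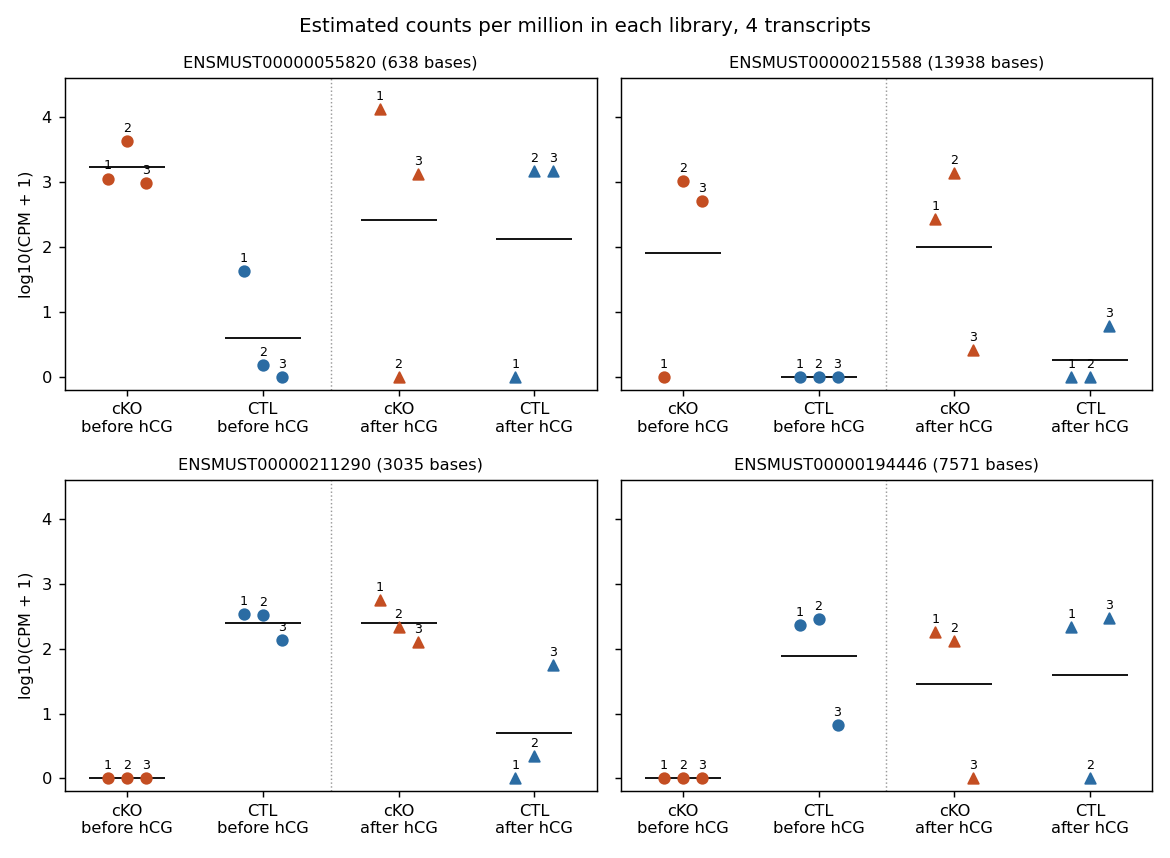
Level of 4 transcripts in every RNA library, as log10(CPM + 1); circles are libraries before hCG, triangles after hCG, orange cKO and blue CTL, numbers are replicates and bars are group means on this scale. Before hCG, ENSMUST00000055820 lay at 960.3 CPM or more in cKO and at 41.1 CPM or less in CTL, and ENSMUST00000211290 changed sides between the times.

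Beyond these 4, single transcripts were ranked by p among those with libraries that did not overlap whose higher genotype averaged 5 CPM or more. The first 10 that were higher in cKO had cKO means of 11 to 1239 CPM and CTL means of 0 to 5.35 CPM, and their edgeR adjusted p ran from 0.174 to 0.746. In 9 of these 10 the CTL libraries were all at 0, and in 9 the cKO libraries differed among themselves by over 10-fold. None of them kept libraries that did not overlap in the same direction after hCG. The first 10 that were lower in cKO, which include ENSMUST00000211290 and ENSMUST00000194446, had cKO means of 0 to 0.01 CPM and CTL means of 11.1 to 266 CPM (edgeR adjusted p from 0.354 to 0.746). In 9 of these 10 the cKO libraries were all at 0, and in 5 the CTL libraries differed among themselves by over 10-fold. Of the 10 lower in cKO, 1 separated the genotypes in the same direction after hCG and 1 in the opposite direction.

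The most abundant transcripts, by counts and not per length, differed little between the genotypes relative to their spread. Of the 71 that averaged 1000 CPM or more over the 6 libraries, 64 had cKO and CTL means within 2-fold of each other, 4 were over 2-fold higher and 3 over 2-fold lower in cKO. ENSMUST00000055820 was the 1 call among them, against a share called of 0.00607% over all tested transcripts. A transcript of 19823 bases was the other one whose genotypes did not overlap. The 71 thus separated upward in 2.82% and downward in 0%, against 4.53% and 1.92% of all tested transcripts. Both transcripts entered this class through cKO, with CTL means of 13.9 and 432 CPM, so their upward direction is tied to the selection. The transcript of 19823 bases stood at 1397, 3049 and 1427 CPM in cKO, against 60.8, 749 and 487 CPM in CTL. Its mean was 1958 ± 946 CPM in cKO and 432 ± 347 CPM in CTL (SD, n = 3 each), with a log2 fold change of 2.31 (SE 1.57, edgeR adjusted p = 1). After hCG its genotypes overlapped, at 311, 1070.1 and 53.7 CPM in cKO against 301, 107 and 999.9 CPM in CTL.

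The 10 most abundant transcripts made up 4.00%, 5.98% and 5.42% of the counts in cKO replicates 1 to 3, against 5.11%, 8.99% and 7.92% in CTL. None of the 10 separated the genotypes. The first of them, of 3756 bases, stood at 3381, 9901 and 15736 CPM in cKO, against 2831, 47252 and 32981 CPM in CTL. Its mean was 9673 ± 6181 CPM in cKO and 27688 ± 22679 CPM in CTL (SD, n = 3 each), and the difference did not pass the threshold (log2 fold change -1.51, SE 0.68, edgeR adjusted p = 0.746). Replicates 2 and 3 of cKO lay below replicates 2 and 3 of CTL, whereas replicate 1 was low in both genotypes. The third, of 2520 bases, stood at 3264, 6576 and 4130 CPM in cKO, against 8487, 9256 and 4045 CPM in CTL, and CTL replicate 3 fell among the cKO values.

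Several of the 10 followed the replicate 1 pair and not the genotype. The sixth, of 1824 bases, stood at 10850.1, 628 and 1454 CPM in cKO, against 11408, 1898 and 870 CPM in CTL. The eighth, of 2947 bases, stood at 9396, 93.7 and 357 CPM in cKO, against 13105, 69.3 and 358 CPM in CTL. In each, the cKO and CTL libraries of replicate 1 were the highest of the 6, and the genotype difference within the same number was small beside the gap between numbers. After hCG, CTL replicate 1 was the highest library for the sixth and the eighth (20935 and 15218 CPM). There cKO replicate 1 stood at 1472 and 105 CPM. The tenth, of 1475 bases, ran through the numbers alike in both genotypes, at 1556, 3193 and 5917 CPM in cKO against 1863, 3381 and 6267 CPM in CTL.

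The genotypes were also compared by whether their libraries overlapped. The 3 cKO libraries lay above the 3 CTL libraries in 1492 of 32944 transcripts (4.53%) and below them in 631 (1.92%). Of the 20 ways to split 6 libraries into 3 and 3, 1 separates them in each direction, so such counts also arise without a genotype effect. With counts thinned to the smallest of the 6 totals, the numbers were 1451 and 610, and with TMM-scaled CPM 1504 and 689. Without both replicate 1 libraries they were 4997 and 3675, a looser condition because only 2 libraries a side had to separate. After hCG the split ran the other way, with 494 transcripts (1.50%) higher and 1005 (3.05%) lower in cKO. The edgeR test there called 3 transcripts (0.00911%), 1 higher and 2 lower in cKO. Separation in the same direction at both times was found for 26 transcripts that were higher in cKO, which is 1.74% of the upward list before hCG and 5.26% of the upward list after hCG. For transcripts lower in cKO the number was 14, which is 2.22% of the downward list before hCG and 1.39% of the downward list after hCG. In 32 transcripts cKO was higher before hCG and lower after it, and in 10 the reverse.

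A stricter pattern was presence in 1 genotype only. Before hCG, 220 transcripts (0.668% of those tested) reached at least 1 CPM in all 3 cKO libraries and 0 counts in all 3 CTL libraries, and 81 (0.246%) showed the reverse. Without both replicate 1 libraries, with 2 a side, the numbers were 1009 and 572. Their median levels were modest, with a mean of 9.32 CPM over the cKO libraries for the 220 and of 11.2 CPM over the CTL libraries for the 81. Only 25 of the 220 and 10 of the 81 reached 10 CPM in each of the 3 libraries that held them. After hCG, 124 of the 220 transcripts (56.4%) were seen in CTL libraries and 49 of the 81 (60.5%) in cKO libraries, and the pattern itself recurred in 2 of the 220 and in 0 of the 81. In all, 63 transcripts showed the cKO pattern after hCG and 113 the CTL pattern. None of the 301 passed the threshold (edgeR, lowest adjusted p = 0.174).

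The number of transcripts a library held is given beside these counts. Thinned to the smallest total, it was 31155, 26301 and 38205 in cKO, against 24602, 25497 and 33036 in CTL. The groups overlapped (means 31887 ± 5986 in cKO and 27712 ± 4633 in CTL, SD, n = 3 each, exact permutation p = 0.5, two-sided, adjusted p = 0.6 over 4 measures). The effective number of transcripts, a measure of how evenly counts are spread, was 5786, 3372 and 6848 in cKO, against 4211, 3479 and 5222 in CTL (exact permutation p = 0.5, adjusted p = 0.6). The count-weighted transcript length was 4065, 3801 and 3880 bases in cKO, against 3867, 3711 and 3786 bases in CTL (exact permutation p = 0.2, adjusted p = 0.6). The 100 most abundant transcripts took 19.9%, 27.6% and 19% of the counts in cKO, against 23%, 27.2% and 21.9% in CTL (exact permutation p = 0.6, adjusted p = 0.6). With 3 libraries a side the smallest possible p is 0.1. After hCG, transcripts of at least 1 count numbered 15966, 17790 and 18328 in cKO, against 21400, 11115 and 26259 in CTL, and the groups overlapped again. The part of detection in the upward and downward counts was not tested.

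By median, the SD between libraries of a genotype exceeded the difference between genotype means in each class of abundance. Means vary less than single libraries, so this order can arise without a genotype effect and is no test of one. Among transcripts of at least 1000 CPM, the median SD within a genotype was 1.43 on the log2(CPM + 1) scale, and the median absolute difference between genotype means was 0.38. From 100 to 1000 CPM the values were 1.70 and 0.69, and from 10 to 100 CPM 2.36 and 1.13. The median coefficient of variation at 1000 CPM and above was 0.748 in cKO and 0.71 in CTL, and from 10 to 100 CPM 1.08 in cKO and 1.19 in CTL. Without both replicate 1 libraries the SD at 1000 CPM and above was 0.63 and the difference 0.45, from 100 to 1000 CPM 0.95 and 0.76, and from 10 to 100 CPM 1.80 and 1.32. The coefficient of variation at 1000 CPM and above was then 0.362 in cKO and 0.339 in CTL. Taken within a replicate number, cKO and CTL at 1000 CPM and above differed by a median of 0.43, 0.91 and 0.35 for replicates 1 to 3, against 1.56 between libraries of different numbers within a genotype. From 100 to 1000 CPM these medians were 0.99, 1.16 and 0.75, against 1.62. The contrast was smaller below 100 CPM. From 10 to 100 CPM the medians were 1.77, 2.01 and 1.36, against 2.29, and from 1 to 10 CPM 1.45, 1.18 and 1.52, against 1.62. Under 1 CPM they were 0.14, 0.13 and 0.72, against 0.40, so replicate 3 went the other way. Libraries of different numbers include replicate 1, which stood apart in both genotypes. The labels do not say what libraries of the same number share. In the shallowest library 100 CPM stands for 925 estimated counts. The part of counting error in the spread was not tested.

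Many transcripts that were abundant in 1 library were absent from another of the same genotype. Of the 1558 transcripts averaging 100 CPM or more, 1202 (77.2%) were seen in all 6 libraries and 230 (14.8%) in 5 of them. The share at 0 was 6.74%, 5.52% and 3.08% in cKO replicates 1 to 3, against 8.41%, 6.23% and 4.75% in CTL. From 10 to 100 CPM, 39.1% of 12527 transcripts were seen in all 6 libraries, and 52.8% had over 50% of their summed CPM in 1 library. Among nonzero values, 74.4% to 82.7% in cKO and 71.6% to 78.5% in CTL were not whole numbers (tolerance 0.001); kallisto divides a read that matches several transcripts among them. The part of that division in the spread was not tested.

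**Figure D3:**
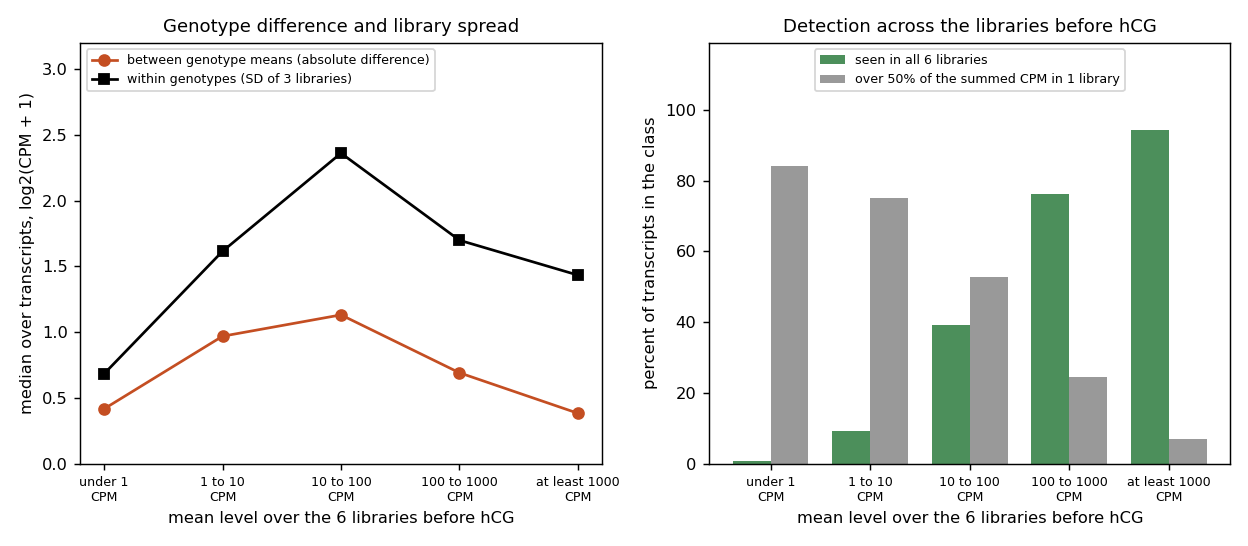
Left, medians over transcripts of the absolute difference between genotype means (orange) and of the SD within genotypes (black), both in log2(CPM + 1), by mean level over the 6 libraries before hCG. Right, the percent of each class seen in all 6 libraries (green) and with over 50% of the summed CPM in 1 library (grey). The spread within genotypes lay above the genotype difference in all 5 classes. The spread is that of single libraries and the difference that of means, so this order is no test of a genotype effect.

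The intervals of the fit state how precisely each change was estimated, without the adjustment for the number of tests. The median 95% interval of the log2 fold change reached 2.36 to either side at 1000 CPM and above, 4.35 from 100 to 1000 CPM and 6.53 from 10 to 100 CPM. Without both replicate 1 libraries these medians were 2.84, 5.58 and 8.57, with fewer libraries in the fit. With all libraries, the narrowest of all tested transcripts reached 1.32 to either side, so for 0 of 32944 transcripts did the interval lie within a 2-fold change in both directions. A transcript that did not pass the threshold may therefore still differ between cKO and CTL by several fold. By length the median log2 fold change stayed between 0.03 and 0.16 in 5 classes from under 500 to at least 4000 bases, against 0.11 over all tested transcripts. Libraries that did not overlap were found upward in 3.88% of the 2347 transcripts under 500 bases and in 4.91% of the 6635 of at least 4000 bases, and downward in 0.81% and 1.94%.

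**Figure D4:**
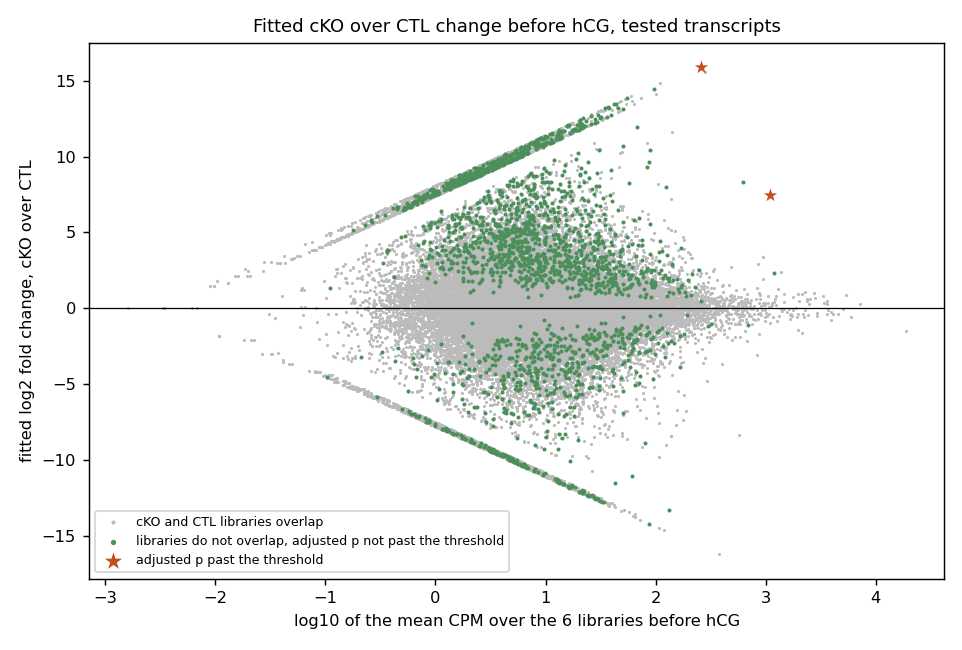
Fitted log2 fold change of cKO over CTL before hCG against log10 of the mean CPM over the 6 libraries, for the tested transcripts that average 0.001 CPM or more (138 below that are not drawn). Grey points are transcripts whose genotypes overlap, green points those that do not, and stars the 2 calls; the diagonal bands are transcripts with 1 genotype at 0.

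Another tool gave a much longer list from the same counts. DESeq2 called 1028 of 24768 transcripts, 610 higher and 418 lower in cKO. In 1008 of the 1028 (98.1%) all 3 libraries of 1 genotype were at 0, and in 429 (41.7%) a single library held over 90% of the CPM of the higher genotype. The absolute log2 fold change was over 20 in 852 of the 1028. The genotypes did not overlap in 207 of the 1028 (20.1%), 132 higher and 75 lower in cKO. Over the 32944 transcripts tested by edgeR these shares were 4.53% higher and 1.92% lower. The DESeq2 list was drawn from the same libraries, so this overlap count is no separate support for it. Of the 2 edgeR calls, DESeq2 also called ENSMUST00000215588 (DESeq2 adjusted p = 1.52e-13) but not ENSMUST00000055820 (DESeq2 adjusted p = 0.356). The transcripts under an unadjusted p of 0.05 in edgeR had the other genotype at 0 in 1211 of the 1278 that were higher (94.8%) and in 874 of the 921 that were lower in cKO (94.9%). The limma test on log2(TPM + 1) called 0 transcripts, with 1227 higher and 565 lower at an unadjusted p under 0.05.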

How the data were processed

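The authors deposited 1 kallisto table per library with estimated counts, TPM values, length and effective length per transcript, per the file headers. Per the submitters' processing notes, Trimmomatic, TopHat2 2.0.12, kallisto and DESeq2 were used with mm9, with no role or order given; no transcript annotation is named in the sources used here. RNA libraries started from 300 ng, per the labels' protocols. Replicate numbers were taken from the deposited tables' names.

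For the fits, deposited estimated counts were rounded. With edgeR 4.0.16 (R 4.3.3), filterByExpr kept 32944 transcripts (94.4% to 97.5% of each library's counts); TMM scaling was used, and glmQLFit and glmQLFTest fitted all 12 libraries in 1 model of 4 groups (threshold 0.05). The SE is the log2 fold change over the root of F. No transcript could be paired with a gene, so transcripts were tested, as the design provided, and the gene lists were not used. Named transcripts are the 2 calls and, in the other direction, the pair of lowest p whose libraries do not overlap, with at least 5 CPM in the higher genotype; ENSMUST00000215588 is a call whose libraries overlap, and the transcript of 19823 bases was picked after its values were seen. Library measures had exact permutation tests over all 20 arrangements. Detection was thinned to 9250809 counts. Intervals and floors of 3 counts cover counting error or the spread of these libraries only. The comparison and lists were chosen with earlier results of these data known. Alternatives used DESeq2 1.42.0 and limma 3.58.1.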

Additional observations from a re-analysis of the deposited data

Results flagged for a closer look

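The cKO effect differed between the times, before minus after hCG, in 11 of 32944 transcripts by edgeR's interaction test, with adjusted p from 2.05e-05 to 0.0413. The effect was more positive before hCG in 4 and more negative in 7. Of the 11, 1 had genotypes that did not overlap before hCG and 3 had genotypes that did not overlap after it. Over all tested transcripts the genotypes did not overlap upward in 4.53% and downward in 1.92% before hCG. After hCG these shares were 1.50% and 3.05%. The 11 were picked by a test on the same libraries, so their separation is no separate support.

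ENSMUST00000211290 was the 1 of these 11 that separated the genotypes at both times, in opposite directions. It stood at 0, 0 and 0.0301 CPM in cKO before hCG, against 336.8, 328 and 134 CPM in CTL, and at 570.5, 219 and 126 CPM in cKO after hCG, against 0, 1.21 and 55.3 CPM in CTL (edgeR interaction adjusted p = 0.0413). Over its 15 alternatives the direction was the same in all 15, and 3 passed the threshold.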

How the results depend on the processing

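The count of 2 calls before hCG depended on the settings. It was 1 with median-ratio factors, 1 with the replicate block over 12 libraries, 1 without both replicate 1 libraries before hCG and 1 without these and CTL replicate 1 after hCG. It was 0 with upper-quartile factors, 0 without a filter, 0 at a mean of 10 CPM, 0 with only the 6 libraries before hCG and 0 with limma on log2(TPM + 1) or log2(TPM + 0.1). It was 5 (3 higher, 2 lower) with only these 6 and the replicate block, and 1028 with DESeq2. At an unadjusted p under 0.05, the fits with 0 calls under another setting gave 1510 higher and 1049 lower (upper quartile), 943 and 917 (no filter), 314 and 268 (10 CPM), 407 and 148 (6 libraries), 1227 and 565 (limma, 1) and 1157 and 499 (limma, 0.1). Leaving out single libraries gave 0 to 2 calls. The 0 stood beside 897 higher and 271 lower without cKO replicate 2, 326 and 661 without CTL replicate 2 and 431 and 661 without CTL replicate 3. In each of these fits the sides were unequal, and the last 2 leaned the other way. The number of interaction calls was 11 in the main fit, 11 with the replicate block over 12 libraries, 9 with median-ratio factors and 8 without a filter. It was 0 with upper-quartile factors, 0 at a mean of 10 CPM, 0 with either limma fit, 3493 with DESeq2 and 7 without the 3 replicate 1 libraries. Leaving out single libraries before hCG gave 1 (without cKO replicate 3) to 7 (without CTL replicate 1), with 3 without CTL replicate 2 and 5 without any other. For the interaction fits with 0 calls, the unadjusted counts, more positive and more negative before hCG, were 3221 and 1946 (upper quartile), 869 and 658 (10 CPM), 982 and 366 (limma, 1) and 1210 and 430 (limma, 0.1). The cause was not tested. Median-ratio factors put the median log2 fold change at 0.00184, against 0.11 with TMM. ENSMUST00000055820 kept its direction in 18 of 18 alternatives and passed in 8, and ENSMUST00000215588 kept its direction in 16 of 16 and passed in 2. ENSMUST00000215588 was not tested with the 6 libraries alone, where the filter removed it. The fits and spreads without both replicate 1 libraries, the differences within a replicate number and the block over 6 libraries were added after the data were seen. Replicate numbers did not pair the libraries by the rule set (correlations of deviations 0.264, 0.0904 and 0.0992, against 0.1 required of each). Across genotypes, the deviations of each library correlated best with those of its own number. For cKO replicate 2 this was narrow (0.0904, against 0.0873 with CTL replicate 3). In log2(CPM + 1) at 100 CPM or more, cKO replicate 2 was closer to CTL replicate 3 (0.54) than to CTL replicate 2 (0.42). Fits per gene were not run, because no table used here pairs transcripts with genes. At 100 CPM the shallowest library held 925 estimated counts, and the part of depth in these results was not tested. The library measures kept their direction in every alternative.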
